A study of Mus musculus with 22 samples.

Results

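The genes described here are 10 members of the gp130 cytokine pathway that were selected by name. They are the ligand Il6, the receptor chains Il6ra, Lifr and Il6st (the gene of gp130), the kinases Jak1 and Jak2, the transcription factor Stat3, and the feedback inhibitors Socs1, Socs2 and Socs3. All 10 were found among the 21995 genes of the deposited tables. RNA-seq had been carried out on whole spinal cord of C57BL/6 mice to examine changes during normal aging and in the SOD1 G93A mouse model of amyotrophic lateral sclerosis (ALS). The aging experiment held 8 young wild-type males of 3 to 4 months and 8 old wild-type males of 18 to 24 months, with libraries made by the Roche RNA KAPA Hyperprep kit. The ALS experiment held 3 symptomatic G93a mice, which carry a high copy number of a mutant human SOD1 transgene, and 3 wild-type controls. Both ALS groups were 5 to 6 months old by the sample labels, both mixed females and males, and their libraries were made with the Illumina TruSeq kit. No mouse of the groups used here is labelled with another allele or a treatment.

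Cytokines of the interleukin-6 family bind a receptor chain of their own and then recruit gp130, which many cells carry. JAK kinases attached to the receptors phosphorylate STAT3, which moves into the nucleus and switches on genes that include Socs3, and the SOCS3 protein in turn binds gp130 and JAK and damps the signal. In the spinal cord this pathway is best known from astrocytes, where STAT3 takes part in the reaction to injury, and from the trophic effects of ciliary neurotrophic factor (CNTF) and leukemia inhibitory factor (LIF) on motor neurons. RNA-seq measures transcripts only. Phosphorylation of STAT3 was not measured in these libraries.

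Socs3 was the member with the largest change in both comparisons, and its promoter holds a match to the STAT binding motif, so this stretch is shown beside that of Gfap, an astrocyte gene widely described as a STAT3 target. Both are from RefSeq on GRCm38.p6 and are printed on the strand of the gene, with the motif match in capitals.
Socs3, chr11:117969460-117969579, minus strand: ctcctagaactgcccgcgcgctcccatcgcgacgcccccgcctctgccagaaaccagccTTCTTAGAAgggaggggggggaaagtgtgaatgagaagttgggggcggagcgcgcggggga
Gfap, chr11:102897194-102897313, minus strand: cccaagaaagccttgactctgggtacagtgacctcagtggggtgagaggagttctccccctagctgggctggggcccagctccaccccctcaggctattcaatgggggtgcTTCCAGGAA
The motif searched was TTCNNNGAA, which reads the same on both strands in its named letters. Windows of 300 bases were used, from 250 bases before to 50 bases after each annotated start. The motif was present in 2726 of 32851 such windows of all genes (8.3%). A window was given for 9 of the 10 members, and that of Socs3 was the only one of these 9 with a match, which began 154 bases before the RefSeq start site. The GENCODE span of Socs3, given with its values, reaches 681 bases further upstream, so the printed stretch lies before the start in RefSeq and inside the gene in GENCODE. Among 33 other genes named by rule that had a window, 3 held the motif. These were Gfap, Icam1 and Steap4. The Gfap match began at position -2 relative to the RefSeq start site and so runs across it. A match is a description of the sequence and does not show that STAT3 is bound there.

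Depth and library quality were examined before the members. The young and old libraries held from 5078092 to 9358055 counts and the control and G93a libraries from 9675610 to 13219797, so counts were deeper in the ALS experiment. Markers of neurons, astrocytes, oligodendrocytes and microglia were present in every library, while the neutrophil marker Ly6g had no count in any library. The deposited columns give the group of a library but not its replicate number, so libraries are numbered here by their order within the group. Old library 6 stood apart from the other old libraries. Its median correlation with the other libraries of its group was 0.973, against 0.98 to 0.984 for the rest, and members and pathway genes whose call changed without it (Jak1, Pias3 and Il11ra1) are given with both values.

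Levels of the members were first compared with each other in FPKM (fragments per length of transcript and per size of library), the deposited scale on which genes of different length can be compared. In young mice the order of mean FPKM was Jak1 at 41.1 ± 1.78, Il6st at 39.4 ± 5.9, Stat3 at 26.1 ± 3.27, Lifr at 12.4 ± 1.23 and Jak2 at 8.2 ± 0.596 (SD, n = 8). Socs2 followed at 3.57 ± 0.525 FPKM, and Il6ra at 0.974 ± 0.182, Socs3 at 0.814 ± 0.287 and Socs1 at 0.279 ± 0.184 lay below it. The ranges of Jak1, Il6st and Stat3 overlapped from each neighbor to the next in young mice, as did those of Il6ra, Socs3, Socs1 and Il6. Lifr, Jak2 and Socs2 were each separated from the gene above and the gene below. The signaling chain of the receptor and its kinase were thus abundant transcripts, and the inhibitors Socs1 and Socs3 were rare.

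In old mice Socs3 was at 2.43 ± 1.16 FPKM and Il6ra at 1.4 ± 0.357 (SD, n = 8), with overlapping ranges. Il6st, Jak1 and Stat3 were again the 3 highest members, at 38.7 ± 8.1, 37.3 ± 2.61 and 30.9 ± 3.27 FPKM. In control mice of the ALS experiment Jak1 was at 43.3 ± 4.56 FPKM, Il6st at 25.7 ± 0.924 and Stat3 at 21.1 ± 1.88 (SD, n = 3), and no neighbors among these 3 overlapped. Socs3 was next to last in these mice, at 0.433 ± 0.295 FPKM. In G93a mice Stat3 was the highest member at 41.2 ± 3.05 FPKM, with ranges that overlapped down to Il6st at 37.7 ± 3 and Jak1 at 34.5 ± 1.21 (SD, n = 3). Socs3 at 9.92 ± 3.58 FPKM had moved up to lie between Jak2 at 11.4 ± 0.616 and Lifr at 8.86 ± 1.13, and it overlapped with both.

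**Figure D1:**
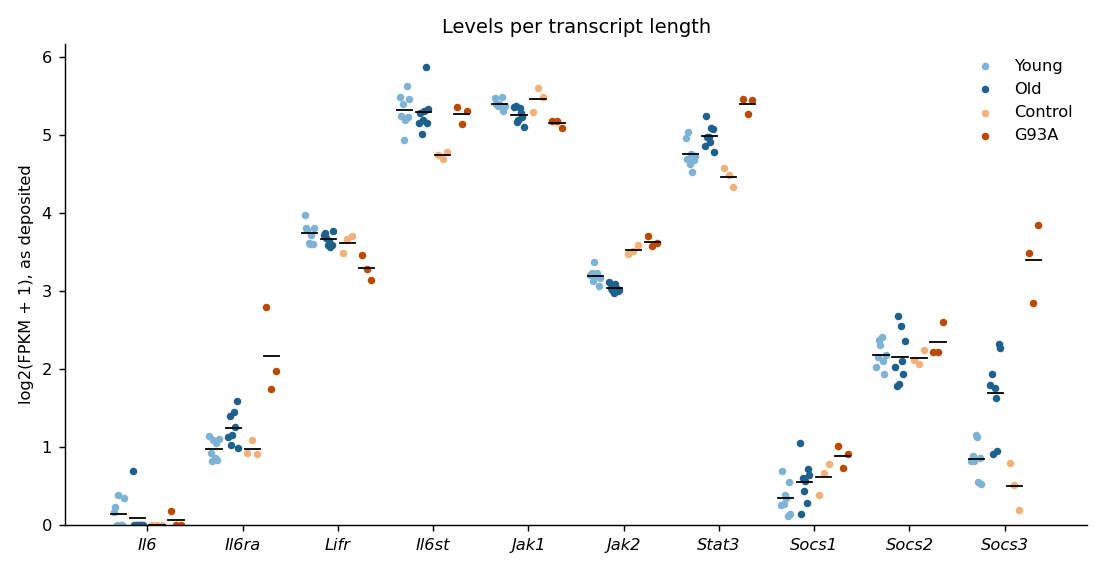
Deposited log2(FPKM + 1) of the 10 genes in every library, with young, old, control and G93A libraries in separate colors and a bar at each group mean. Jak1, Il6st and Stat3 are the 3 highest genes in every group, and the Socs3 points of the 3 G93A libraries lie above all points of the other groups.

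Aging was examined by comparing old with young libraries in CPM (counts scaled to the library size, with TMM factors), by the quasi-likelihood test of edgeR, with p-values adjusted by the Benjamini-Hochberg method over the 13647 genes tested. A gene is called higher or lower here at an adjusted p-value under 0.05. Of the 10 members 8 passed the filter on low counts, and 3 of these were higher in old mice (Stat3, Socs3 and Il6ra) and 1 was lower (Jak2). Of all genes tested, 13.5% were higher and 12.9% were lower by this rule. The study also required a log2 fold change beyond 1. By that rule Socs3 was the only member higher, while 2.18% of all genes were higher and 0.044% were lower. The median log2 fold change of the 8 members was 0.00336, with 4 positive and 4 negative values, and that of all genes tested was -0.00273. With the young libraries alone Socs3 would not have passed the filter.

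ALS was examined by comparing G93a with control libraries in the same way over 14386 genes. Of the 9 members that passed the filter, 4 were higher in G93a mice (Stat3, Socs3, Il6st and Il6ra) and 2 were lower (Lifr and Jak1). Of all genes tested, 18.4% were higher and 15.5% were lower. With the threshold on fold change Socs3 and Il6ra were higher, against 8.5% of all genes higher and 1.2% lower. The median log2 fold change of the 9 members was 0.47, with 7 positive and 2 negative values, and that of all genes tested was 0.00306. With the control libraries alone Socs1 and Socs3 would not have passed the filter, so these counts and this median are a description. For the 4 members called higher, every G93a library was above every control library, which held for 25.7% of all genes. For Lifr and Jak1 every G93a library was below every control library, which held for 24.7% of all genes.

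**Figure D2:**
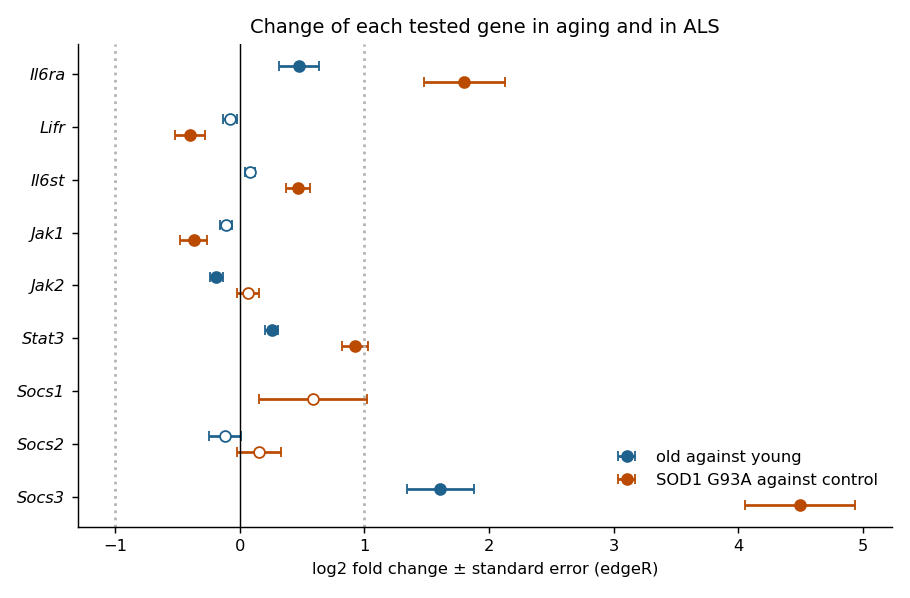
Log2 fold change with its standard error (edgeR) of each tested gene, old against young in blue and SOD1 G93A against control in orange, with open points for an adjusted p-value of 0.05 or more and dotted lines at a log2 fold change of -1 and 1. Socs3 lies farthest to the right in both comparisons, at 1.61 and 4.50, and Jak1 and Lifr lie left of 0 in both.

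Il6 (ENSMUSG00000025746, GRCm38 chromosome 5 from 30013114 to 30019981), the cytokine after which the family is named, was at the limit of detection in all 4 groups. Young libraries held from 0 to 2 Il6 counts and old libraries from 0 to 3, and 7 of the 8 old libraries held none. No control library held an Il6 count, and the G93a libraries held at most 1. A count of 3 corresponds to between 0.321 and 0.591 CPM in the aging libraries and to between 0.227 and 0.31 CPM in the ALS libraries, and lower levels lie below what this depth can show. Il6 did not pass the filter. By an exact two-sided permutation test over libraries on log2 CPM, p was 0.426 in aging and 1 in ALS, where 3 mice against 3 cannot go below 0.1. A difference in Il6 transcripts was therefore not detectable at this depth.

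Il6ra (ENSMUSG00000027947, chromosome 3 from 89864059 to 89913196), the receptor chain that binds interleukin-6, was a low transcript. It was at 3.89 CPM in the lowest young library, 5.73 at the median and 7.46 in the highest, and at 5.42, 7.74 and 11.9 CPM in the old libraries. The groups overlapped, with 5 of 8 old libraries above all young libraries. The means of 5.68 ± 1.36 CPM (SD, n = 8) in young and 7.93 ± 2.06 CPM (SD, n = 8) in old mice gave a log2 fold change of 0.47 (standard error 0.16, edgeR adjusted p = 0.0323). This call was lost without young library 3, 4 or 7 or old library 5 or 7, with an edgeR adjusted p of up to 0.0853.

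The control libraries held Il6ra at 5.03, 6.4 and 7.53 CPM, and the G93a libraries at 33.8, 13.6 and 18.8 CPM. All 3 G93a libraries were above all controls, and they varied widely among themselves. The log2 fold change was 1.80 (standard error 0.32, edgeR adjusted p = 0.00444), a 3.48-fold higher level. An antisense gene, Gm42809, overlaps Il6ra by 281 bases. Strand-specific counting is not given in the sources used here, so reads of such pairs may not be separable. Because these are bulk samples, fewer cells of a type and less RNA per cell cannot be told apart for this gene or for any other described here.

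Lifr (ENSMUSG00000054263, chromosome 15 from 7090614 to 7197489), the chain that pairs with gp130 for LIF and CNTF, was at 126 ± 13.3 CPM in young and 119 ± 7.17 CPM in old mice (SD, n = 8). Its log2 fold change in aging was -0.08 (standard error 0.06, edgeR adjusted p = 0.34). The control libraries held Lifr at 105, 118 and 124 CPM and the G93a libraries at 102, 84.2 and 77 CPM. The G93a libraries were all lower, by a small margin between the lowest control and the highest G93a library. The log2 fold change was -0.40 (standard error 0.12, edgeR adjusted p = 0.0312). Without control library 2, control library 3 or G93a library 3 the call was lost, and the log2 fold change ranged from -0.52 to -0.31 over all 6 omissions.

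Il6st (ENSMUSG00000021756, chromosome 13 from 112464070 to 112510086), which encodes the shared signaling chain gp130, was abundant and varied little in CPM. In FPKM it varied more, from 29.6 to 48.5 in young and from 31.3 to 57.7 in old libraries. Young libraries lay between 205 and 237 CPM with a median of 223, and old libraries between 221 and 254 CPM with a median of 238. The log2 fold change was 0.09 (standard error 0.04, edgeR adjusted p = 0.119). On the deposited FPKM scale, the direction in aging was the opposite, at -0.033 by limma (adjusted p = 0.874), so no direction is given for aging. In the ALS experiment the control libraries held Il6st at 189, 179 and 194 CPM and the G93a libraries at 280, 231 and 267 CPM. Every G93a library was above every control, with a log2 fold change of 0.47 (standard error 0.10, edgeR adjusted p = 0.00789).

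**Figure D3:**
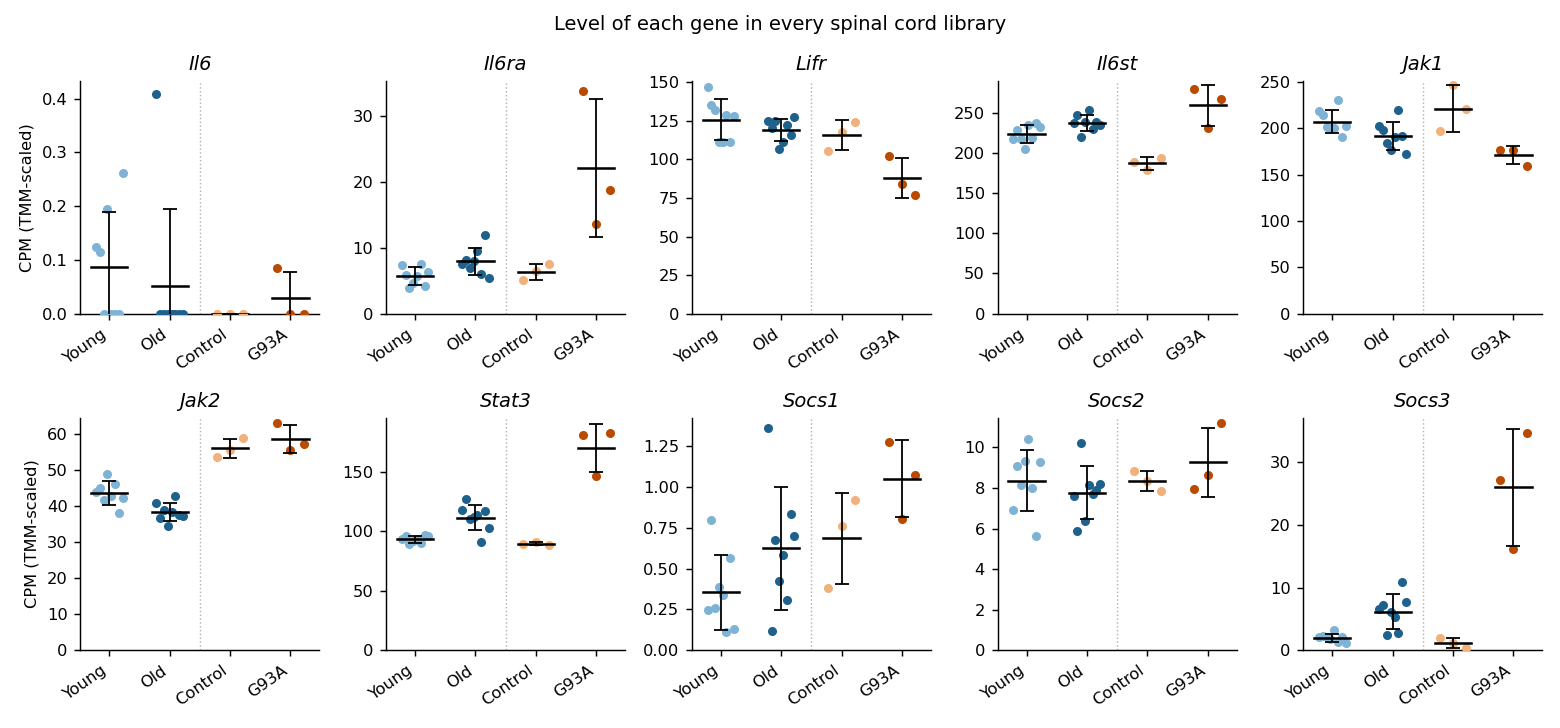
Level in CPM (TMM-scaled) of each gene in every library of the 4 groups, with the group mean as a bar and the SD as whiskers; the dotted line separates the aging from the ALS experiment. The G93A points lie above all control points for Il6ra, Il6st, Stat3 and Socs3 and below them for Lifr and Jak1, and most Il6 points lie at 0.

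Jak1 (ENSMUSG00000028530, chromosome 4 from 101152367 to 101265282), a kinase that many cytokine receptors use, was at 207 ± 12.7 CPM in young and 192 ± 15.2 CPM in old mice (SD, n = 8). The log2 fold change was -0.11 (standard error 0.05, edgeR adjusted p = 0.102). Old library 6 had the highest Jak1 level of the old libraries, at 220 CPM. Without it the log2 fold change was -0.14 and Jak1 was called lower (edgeR adjusted p = 0.0198). In ALS, the control libraries held Jak1 at 197, 247 and 221 CPM and the G93a libraries at 177, 177 and 160 CPM. The G93a libraries were all lower, with a log2 fold change of -0.37 (standard error 0.10, edgeR adjusted p = 0.0245). This call was also lost without control library 2, control library 3 or G93a library 3, where the edgeR adjusted p rose to at most 0.109. Jak1 overlaps Raver2 on the other strand by 4 bases and a processed pseudogene, Gm12785, on the same strand by 172 bases.

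Jak2 (ENSMUSG00000024789, chromosome 19 from 29251828 to 29313080), the kinase that also serves hormone receptors, was the member that was lower in old mice. Young libraries lay between 38.2 and 48.9 CPM with a median of 43.5, and old libraries between 34.5 and 42.9 CPM with a median of 37.9. The groups overlapped, with 4 of 8 old libraries below all young libraries, and the log2 fold change was -0.19 (standard error 0.06, edgeR adjusted p = 0.0156). In ALS the control libraries held Jak2 at 53.7, 55.7 and 58.9 CPM and the G93a libraries at 63.2, 55.8 and 57.2 CPM. These overlapped, and the log2 fold change was 0.07 (standard error 0.09, edgeR adjusted p = 0.597).

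Stat3 (ENSMUSG00000004040, chromosome 11 from 100885098 to 100939540) encodes the transcription factor at the end of the pathway. The young libraries lay close together, between 89.5 and 96.5 CPM with a median of 93.5. The old libraries held 117, 127, 111, 112, 114, 90.8, 117 and 103 CPM. In CPM 7 of the 8 old libraries were above every young library, and the exception was old library 6. On the deposited FPKM scale the groups overlapped more, at 22.1 to 31.9 in young and 26.4 to 36.8 in old libraries. Old library 6 was at 33.2 FPKM, above every young library. The log2 fold change was 0.26 (standard error 0.05, edgeR adjusted p = 0.00073), and without old library 6 it was 0.30. The increase was thus 1.2-fold, from a mean of 93.4 ± 2.76 CPM to 111 ± 10.8 CPM (SD, n = 8).

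In ALS the control libraries held Stat3 at 89.1, 91 and 88.4 CPM and the G93a libraries at 181, 147 and 182 CPM. The G93a libraries were all far above the controls, with a log2 fold change of 0.93 (standard error 0.10, edgeR adjusted p = 0.000466). This is a 1.9-fold higher level, just under the threshold on fold change that the study used. Stat3 overlaps Stat5a on the other strand by 72 bases. Stat5a was at 3.52 ± 0.326 CPM in control and 8 ± 0.369 CPM in G93a mice (SD, n = 3), far below the level of Stat3 in CPM.

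Socs1 (ENSMUSG00000038037, chromosome 16 from 10782240 to 10785536), an inhibitor of JAK kinases best known from interferon signaling, was rare. Young libraries held from 1 to 7 Socs1 counts and old libraries from 1 to 10, and it was not tested in aging (exact two-sided permutation test, p = 0.109). In ALS the control libraries held Socs1 at 0.38, 0.758 and 0.922 CPM and the G93a libraries at 1.27, 0.806 and 1.07 CPM. The groups overlapped, with a log2 fold change of 0.59 (standard error 0.43, edgeR adjusted p = 0.323). Socs2 (ENSMUSG00000020027, chromosome 10 from 95385362 to 95417180), which restrains growth hormone signaling, was at 8.36 ± 1.51 CPM in young and 7.76 ± 1.31 CPM in old mice (SD, n = 8; log2 fold change -0.11, edgeR adjusted p = 0.55). It was at 8.33 ± 0.494 CPM in control and 9.27 ± 1.7 CPM in G93a mice (SD, n = 3; log2 fold change 0.16, edgeR adjusted p = 0.532).

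Socs3 (ENSMUSG00000053113, chromosome 11 from 117966079 to 117970047), the feedback inhibitor whose promoter is shown above, changed more than any other member. Young libraries held Socs3 at 2.1, 2.28, 2.08, 1.75, 3.16, 1.32, 2.12 and 1.18 CPM. The old libraries held 6.66, 7.27, 2.42, 6.18, 5.4, 2.78, 11 and 7.69 CPM. Old libraries 3 and 6 lay within the range of the young libraries, and the other 6 lay above it. The mean rose from 2 ± 0.618 to 6.17 ± 2.75 CPM (SD, n = 8), a log2 fold change of 1.61 (standard error 0.27, edgeR adjusted p = 8.21e-05). Without old library 6 the log2 fold change was 1.71.

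The control libraries held 21, 14 and 5 Socs3 counts, and the G93a libraries held 321, 160 and 388. In CPM these were 1.99, 1.18 and 0.384 in control and 27.2, 16.1 and 34.7 in G93a mice. All G93a libraries were far above all controls, and the spread within each group was also wide. The log2 fold change was 4.50 (standard error 0.44, edgeR adjusted p = 0.000274), a 22.6-fold higher level. It lay between 4.04 and 5.06 with each library left out in turn.

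The change in ALS was then set against the change in aging in 1 edgeR fit of all 22 libraries, as the difference between the 2 log2 fold changes. Kit and experiment coincide in this fit, so the kit and the condition cannot be told apart in that difference. Of the 8 members tested, 6 differed between the comparisons, against 25.8% of 14502 genes. A more positive log2 fold change in ALS was found for Stat3, by 0.64 (standard error 0.10, edgeR adjusted p = 8.86e-05), for Socs3 by 2.85 (standard error 0.55, edgeR adjusted p = 0.00042), for Il6st by 0.36 (standard error 0.09, edgeR adjusted p = 0.00288) and for Il6ra by 1.298 (standard error 0.33, edgeR adjusted p = 0.00512). The fold change was more negative in ALS for Lifr by -0.35 (edgeR adjusted p = 0.0375) and for Jak1 by -0.29 (edgeR adjusted p = 0.0414). Those of Jak2 and Socs2 were 0.22 and 0.24 and did not pass the test (edgeR adjusted p = 0.0972 and 0.468). Without G93a library 1 the difference for Il6ra was 0.86 (edgeR adjusted p = 0.0527). That of Lifr lost its call without G93a library 2 or 3 or control library 2 or 3, and ranged from -0.47 to -0.25 over the 6 omissions. That of Jak1 lost its call without G93a library 1 or 3 or control library 2 or 3, and ranged from -0.37 to -0.20.

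The other genes of the pathway came from 7 lists that were written by role, of which 65 genes besides the members were in the tables. All 7 lists were chosen with earlier results of these data known, so their counts beside the shares of all genes are a description. In old mice 29 of the 51 that were tested were higher, against 13.5% of all genes, with a median log2 fold change of 0.32. None was lower by edgeR, although 1 was lower at an unadjusted p under 0.05 and also by DESeq2. This was Socs7, which was named after its value was seen. In G93a mice 45 of 58 were higher, against 18.4% of all genes, with a median log2 fold change of 1.45, and 1 was lower. The 1 lower gene, Socs5, is described with its family. Without old library 6 the number higher in old mice was also 29, of which 28 were shared, with Pias3 lost and Il11ra1 gained. A rare gene can pass the filter through the libraries in which it is high, and could then hardly be called lower. With the control libraries alone 5 of the 51 genes and 12 of the 58 would not have passed. Of the rest 25 of 46 were higher in old mice and 34 of 46 in G93a mice, with medians of 0.28 and 1.07, and all these counts are a description.

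Among ligands, the 3 genes tested in aging were all higher in old mice, beside 13.5% of all genes. These were Cntf (log2 fold change 0.46, edgeR adjusted p = 0.0169), Clcf1 (0.80, edgeR adjusted p = 0.00116) and Ctf1 (0.74, edgeR adjusted p = 0.0169), which encode CNTF, cardiotrophin-like cytokine and cardiotrophin-1. With the young libraries alone Ctf1 would not have passed the filter. In G93a mice 7 of 7 tested ligand genes were higher, beside 18.4% of all genes, with a median log2 fold change of 2.09. Only Cntf and Clcf1 would have passed the filter with the control libraries alone, so these counts are a description. Cntf was at 5.24 ± 0.92 CPM in control and 17.8 ± 5.47 CPM in G93a mice, and Clcf1 at 3.7 ± 1.49 and 14.6 ± 3.44 CPM (SD, n = 3). Lif, the ligand of Lifr, held from 2 to 10 counts in control and from 13 to 72 in G93a libraries (log2 fold change 3.27, standard error 0.72, edgeR adjusted p = 0.00971). Osm, which encodes oncostatin M, held at most 2 counts in any control library and from 9 to 31 in G93a libraries. Against the floor of 3 counts per library it was at least 6.35-fold higher (edgeR adjusted p = 0.0048). Ebi3, which encodes a partner subunit of such ligands, had a log2 fold change of 2.09.

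Of the 6 tested receptor genes, 2 were higher in old mice, and 4 were higher and 1 lower in G93a mice, members included. The shares of all genes were 13.5% higher in aging, and in ALS 18.4% higher and 15.5% lower. The receptor that was not a member and changed most was Osmr, the oncostatin M receptor. It was between 5.07 and 7.63 CPM in young and between 8.33 and 19.7 CPM in old libraries, without overlap (log2 fold change 1.37, standard error 0.14, edgeR adjusted p = 1.54e-07). A gene whose old libraries all lay above all young libraries was found for 3.66% of all genes tested. In control libraries Osmr was between 4.99 and 7.66 CPM and in G93a libraries between 36.3 and 80.1 CPM (log2 fold change 3.26, standard error 0.31, edgeR adjusted p = 0.000241). Cntfr, the chain that binds CNTF, had log2 fold changes of -0.04 in aging and -0.16 in ALS (edgeR adjusted p = 0.714 and 0.462). Il11ra1 had 0.65 in ALS, but it has near-identical copies between which reads could be split. In aging it had 0.21 (edgeR adjusted p = 0.111), and 0.27 without old library 6 (edgeR adjusted p = 0.0224), which made 3 receptor genes higher.

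Of the 4 JAK genes, 1 was higher in old mice besides the lower Jak2, and 2 were higher in G93a mice besides the lower Jak1. For these and the STAT genes, the shares of all genes were 13.5% higher and 12.9% lower in aging. In ALS they were 18.4% higher and 15.5% lower. Jak3, known from lymphoid and myeloid cells, rose by a log2 fold change of 0.39 in old and 0.998 in G93a mice (edgeR adjusted p = 0.0202 and 0.00331), and Tyk2 had 0.51 in G93a mice (edgeR adjusted p = 0.018). Of the 6 tested STAT genes 2 were higher in old mice and 5 in G93a mice. Stat6, which serves interleukin-4 signaling, had 0.93 and 1.73 (edgeR adjusted p = 1.6e-06 and 0.000914), beside 0.26 and 0.93 for Stat3. Stat5a had 0.11 in old mice (edgeR adjusted p = 0.629) and 1.19 in G93a mice (edgeR adjusted p = 0.00246).

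Of the SOCS family, 1 of 7 tested genes was higher in old mice, and 2 of 8 were higher and 1 lower in G93a mice. The shares of all genes were 13.5% higher in aging, and in ALS 18.4% higher and 15.5% lower. The genes that passed in G93a mice besides Socs3 were Socs6 with a log2 fold change of 0.76 and Socs5 with -0.33 (edgeR adjusted p = 0.00632 and 0.0175). The call of Socs5 remained only without G93a library 2 and was lost with any other library of the comparison left out. The median log2 fold change of the family was 0.17 in G93a mice. Of the 8 other negative regulators 3 were higher in each comparison. In aging 1 of the 3 was Pias3, with 0.23 (edgeR adjusted p = 0.0455), and without old library 6 it had 0.21 (edgeR adjusted p = 0.0685) and was not called. Ptpn6, which encodes the phosphatase SHP-1 of blood and myeloid cells, had log2 fold changes of 1.88 and 3.01 (edgeR adjusted p = 4.61e-09 and 0.000169). Ptpn1, the phosphatase PTP1B, had 0.24 and 0.82 (edgeR adjusted p = 0.0341 and 0.00344).

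A list of 30 genes described as STAT3 targets was examined as the output side of the pathway. Many of its genes also respond to other factors, such as NF-kappa B or AP-1, so the list is not specific for STAT3. In old mice 20 of 25 tested genes were higher, with a median log2 fold change of 0.61, beside 13.5% of all genes higher. In G93a mice 26 of 28 were higher, with a median of 1.93, beside 18.4% of all genes, and 23 of them passed the threshold on fold change, beside 8.5%. Rare targets such as Steap4, with 2 to 6 counts in control and 11 to 69 in G93a libraries, and Sprr1a, with 5 to 9 and 58 to 177, passed the filter only with the G93a libraries. The same held for Bcl3, Lcn2, Timp1 and Atf3, which in aging passed only with the old libraries. Of the 21 targets that would have passed it with the control libraries alone, 17 were higher in old mice and 20 in G93a mice, where 17 passed the threshold on fold change, with medians of 0.61 and 1.66. These counts and medians are a description. In either comparison 0 were lower by edgeR, at an unadjusted p under 0.05 and by DESeq2. The largest change was that of Timp1, a secreted inhibitor of metalloproteinases, with log2 fold changes of 3.99 and 6.08 (edgeR adjusted p = 1.41e-10 and 0.000282). These values start from few counts, 1 to 5 in young and 2 to 9 in control libraries. The old libraries held 22 to 66 Timp1 counts and the G93a libraries 123 to 510.

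**Figure D4:**
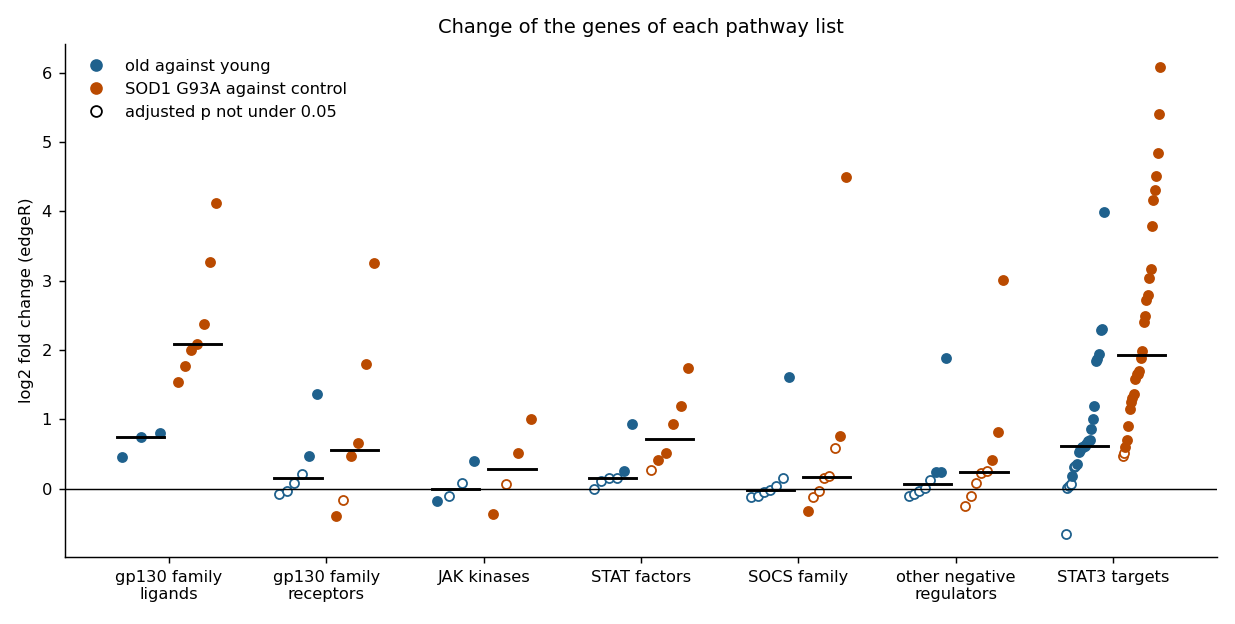
Log2 fold change (edgeR) of each tested gene of the 7 pathway lists, old against young in blue and SOD1 G93A against control in orange, with open points where the adjusted p-value was not under 0.05 and bars at the list medians. The medians of the STAT3 target list are 0.61 and 1.93, and most points of the SOCS family other than Socs3 lie near 0; the topmost ligand point is the fitted value of Osm, whose control libraries were at the floor.

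Gfap, the glial filament protein whose promoter is shown above, lay between 1654 and 2164 CPM in young and between 1999 and 3371 CPM in old libraries (log2 fold change 0.69, edgeR adjusted p = 1.31e-06). It lay between 1395 and 2104 CPM in control and between 6110 and 11229 CPM in G93a libraries (log2 fold change 2.40, edgeR adjusted p = 0.000308). Serpina3n, a secreted protease inhibitor with close paralogs, lay between 49.5 and 59.6 CPM in young and between 106 and 252 CPM in old libraries, and between 47.6 and 59.8 CPM in control and between 783 and 2166 CPM in G93a libraries. Its log2 fold changes were 1.94 and 4.84 (edgeR adjusted p = 2.43e-11 and 0.000113). Vim, another filament gene, had 2.29 and 3.79 (edgeR adjusted p = 2.74e-11 and 0.000202).

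Bcl3, a nuclear partner of NF-kappa B, had log2 fold changes of 1.84 and 4.16, and Atf3, a stress and axon injury factor, had 2.31 and 5.41. Both passed the filter in aging only with the old libraries and in ALS only with the G93a libraries. Cebpd had 1.20 and 3.04, and the immediate early genes Junb and Fos had 0.61 and 0.56 in old and 1.65 and 1.58 in G93a mice, all called. Hif1a, the factor of the response to low oxygen, had 0.06 in old mice (edgeR adjusted p = 0.466) and 0.70 in G93a mice (edgeR adjusted p = 0.00129). Lcn2, the acute phase protein lipocalin-2, had 4.51 in G93a mice (standard error 0.87, edgeR adjusted p = 0.00588), where the libraries ranged from 2.52 to 23.4 CPM. Control libraries held from 2 to 12 Lcn2 counts. In aging it had -0.66 (edgeR adjusted p = 0.352), and 1 young library was at 8.76 CPM, above all old libraries.

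Genes whose level followed that of a member were ranked by Pearson's correlation of log2 CPM over the 16 aging libraries. These libraries fall into 2 age groups and differ in depth and in the marker sums given below, so the values are a description. The genes most like Stat3 were Abi3 (0.969), Ahnak (0.962), Nek6 (0.947), Tnxb (0.947) and Cyp4v3 (0.946), and after subtraction of each group's mean Abi3 (0.92) and Ahnak (0.906) were again first. The genes most like Socs3 were Slc14a1 (0.955), Hexa (0.936), Tgfbr2 (0.936), Pcdhb9 (0.934), which has close paralogs, and Plau (0.921). After subtraction of the group means Galc (0.882) and Slc14a1 (0.879) came first. For Il6st the highest were Mgat4b (0.892) and Edem2 (0.886), and after subtraction Pfkm (0.879) was first.

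Markers of several cell types moved with these results. The summed level of 10 microglia markers lay between 393 and 429 CPM in young and between 596 and 941 CPM in old libraries. It lay between 410 and 480 CPM in control and between 1389 and 2432 CPM in G93a libraries. In aging 8 of 10 markers were higher, beside 13.5% of all genes, and in ALS 7 of 10, beside 18.4%. P2ry12 and Sall1 had log2 fold changes of 0.05 and -0.01 in aging and 0.13 and 0.16 in ALS, and none of these passed the test. Cx3cr1 had 0.91 in aging (edgeR adjusted p = 2.86e-08) and 1.91 in ALS (edgeR adjusted p = 0.000236). Tmem119 had 0.54 in aging (edgeR adjusted p = 0.00141) and 0.53 in ALS (edgeR adjusted p = 0.0599). The old library with the lowest microglia sum, old library 6, also had the lowest Stat3 level of its group in CPM. In FPKM its Stat3 level was not the lowest, at 33.2 within a range of 26.4 to 36.8 in old libraries. It had the highest neuron and astrocyte sums of its group, at 8474 and 6295 CPM. The lowest Socs3 level was that of old library 3 and the lowest Il6ra level that of old library 8. The G93a library with the lowest microglia sum, library 2, had the lowest Stat3, Socs3 and Il6ra levels of its group. It also had the highest neuron sum of its group, at 5734 CPM. G93a library 1 had the highest microglia sum, at 2432 CPM, and the highest Il6ra level. The highest Stat3 and Socs3 levels were those of G93a library 3, at 182 and 34.7 CPM, beside 181 and 27.2 CPM in G93a library 1. The part of the microglia in the change of Stat3, Socs3 and Il6ra was not tested.

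**Figure D5:**
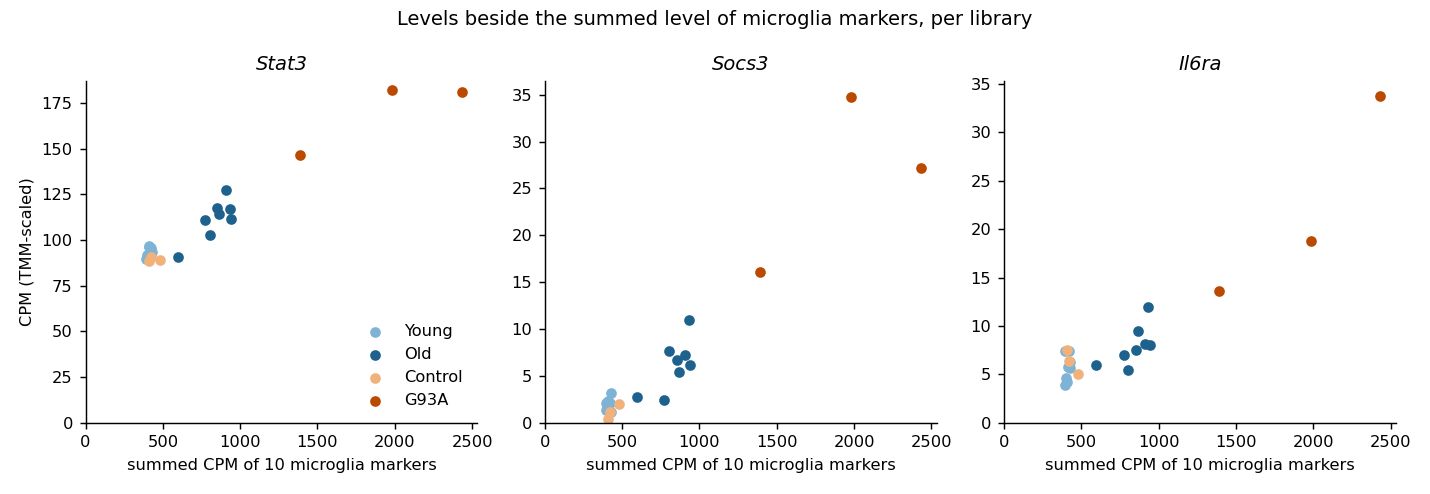
Level of Stat3, Socs3 and Il6ra in CPM (TMM-scaled) against the summed CPM of 10 microglia markers in each of the 22 libraries. Old libraries with sums of 596 to 941 CPM lie above and to the right of most young ones, and the 3 G93A libraries with sums of 1389 to 2432 CPM lie highest for all 3 genes.

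Astrocyte markers summed to between 5715 and 6363 CPM in young and between 5498 and 6295 CPM in old libraries. They summed to between 5338 and 5556 CPM in control and between 6464 and 8177 CPM in G93a libraries. In ALS 4 of 7 were higher, beside 18.4% of all genes. Neuron markers were lower in ALS for 6 of 7 genes and motor neuron markers for 3 of 5, beside 15.5% of all genes. Neuron markers summed to 8712 to 9209 CPM in control and decreased to 3387 to 5734 CPM in G93a libraries. The sums of motor neuron markers decreased from 181 to 208 CPM in control to 91.4 to 105 CPM in G93a libraries. The lower levels of Lifr and Jak1 in G93a mice lay beside this decrease, and its part in them was not tested. Markers of border macrophages and monocytes summed to between 1.92 and 3.37 CPM in control and between 8.06 and 16.8 CPM in G93a libraries. Markers of T cells, B cells and neutrophils summed to at most 2.58 CPM each in every library. Those of T cells were near the floor, and 0 of the 5 in the tables passed the filter. Their sums were 0.194 to 0.707 CPM in young and 0.729 to 2.56 CPM in old libraries. They were 0.154 to 0.854 CPM in control and 1.10 to 1.34 CPM in G93a libraries. These ranges did not overlap between groups. Among all genes tested, every old library lay above every young library for 3.66%. Every G93a library lay above every control library for 25.7%. Markers of oligodendrocyte precursors lay between 130.5 and 154 CPM in young and between 98.1 and 128 CPM in old libraries. They lay between 119 and 142 CPM in control and between 159 and 244 CPM in G93a libraries, and those of Schwann cells between 101 and 119 and between 133 and 309 CPM. Pericyte markers lay between 173 and 227 CPM in control and between 160 and 172 CPM in G93a libraries. The lower sum did not hold for each pericyte gene, as 2 of 4 were higher and 1 lower in ALS, with a median log2 fold change of 0.08. Of 3 oligodendrocyte precursor genes, 1 was lower in old mice and 2 were higher in G93a mice. Of 3 tested Schwann cell genes, 1 was higher in G93a mice. Beside these, 12.9% of all genes were lower in aging, and in ALS 18.4% were higher and 15.5% lower. Sums of oligodendrocyte markers, from 25237 to 30281 CPM in ALS, overlapped between groups, as did those of endothelial cells and of blood.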

How the data were processed

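RNA-seq libraries of 22 spinal cords, 1 per mouse, were analysed. The authors aligned reads to mm10 with STAR, used SAMtools 1.3 and RSEM with an Ensembl annotation, and deposited RSEM expected counts, given as whole numbers without normalization, and log2(FPKM + 1) values. Differential expression was tested on the counts, each comparison alone, with edgeR 4.0.16 (R 4.3.3): filterByExpr (minimum count 10, minimum total 15), TMM scaling, the quasi-likelihood test and Benjamini-Hochberg adjustment. The study itself used DESeq2. The members and gene lists were chosen with earlier results of these data known. Genes named are the members, the called list genes with the largest changes (up to 5 per list and comparison, 10 for STAT3 targets) and those beyond the study's thresholds. DESeq2 1.42.0, limma 3.58.1 on log2(FPKM + 1), RLE factors, other filters, 1 fit of all libraries and omission of each library were alternatives. Library pairs of a group differed by more than sampling noise (chi-square per degree of freedom at least 2.52, where noise gives about 1). P-values measure the spread between mice. Sex is not given per ALS library and was no covariate. CPM and floors carry counting error only. The scripts were tested on simulated data with known changes. Simulated log2 changes of 1.5 were recovered for 100% of genes in aging and 94.9% in ALS, and those of 0.75 for 91% and 59%. Of the calls in the simulated data, 5.47% in aging and 6.71% in ALS were false. Positions are from GENCODE on GRCm38 and promoters from RefSeq. Some genes that the naming rule covers are not reported here.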

Additional observations from a re-analysis of the deposited data

Results flagged for a closer look

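Within the young and the old group, 105 groups of libraries of named genes were examined for a library far from the others, and 9 had one (a gap of more than 0.526 of the group's range). Chance gives about 1 in 20 such groups. Old library 6 was the lowest old library in 4 of the 9, with Vim at 132 CPM, Serpina3n at 106 CPM, Cd44 at 40.1 CPM and Cntf at 4.78 CPM. Without this library the log2 fold changes in aging were 2.40 for Vim, 2.03 for Serpina3n, 1.06 for Cd44 and 0.50 for Cntf, and all kept an adjusted p-value under 0.05 (edgeR). Among young libraries, library 2 was lowest for Cntf at 2.504 CPM and highest for Lcn2 at 8.76 CPM. Young library 7 was highest for A2m at 141 CPM, young library 3 for Cebpd at 5.19 CPM and young library 5 for Ctf1 at 1.70 CPM.

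The change differed between ALS and aging, by the test of the difference in 1 edgeR fit of all libraries, for 37 named genes. Of these 6 were members, with a difference (ALS minus aging, log2) of 0.64 for Stat3, 2.85 for Socs3, 0.36 for Il6st, 1.298 for Il6ra, -0.35 for Lifr and -0.29 for Jak1. The other 31 were list genes. Among ligands and receptors the difference was 1.28 for Cntf, 1.16 for Clcf1 and 1.86 for Osmr. Among kinases and STAT factors it was 0.58 for Jak3, 1.04 for Stat5a and 0.77 for Stat6. Among inhibitors it was 0.58 for Socs6, -0.31 for Socs5, 0.55 for Ptpn1, 0.48 for Ptpn2 and 1.10 for Ptpn6. Among genes described as STAT3 targets the largest difference was 5.13 for Lcn2, followed by 3.05 for Atf3, 2.87 for Serpina3n and 2.29 for Bcl3. It was 2.12 for A2m, 2.04 for Timp1, 1.85 for Igfbp3, 1.81 for Cebpd, 1.70 for Cd44, 1.68 for Gfap and 1.47 for Vim. It was 1.33 for Cebpb, 1.297 for Gadd45g, 1.11 for Ccnd1, 1.01 for Junb and 0.98 for Fos, and 0.81 for Myc, 0.77 for Mcl1, 0.68 for Il4ra and 0.52 for Cp. Library kit and experiment coincide in these differences and cannot be told apart. That of Lcn2 includes a change of -0.66 in aging that was not called (edgeR adjusted p = 0.352). Young library 2 was at 8.76 CPM there and the next highest young library at 2.41 CPM, and the difference was not fitted without young library 2.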

How the results depend on the processing

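The calls of Stat3 and Socs3 in both comparisons and of Il6st and Il6ra in ALS kept their direction and an adjusted p-value under 0.05 under DESeq2, RLE factors, both other filters, 1 fit of all libraries, limma on log2(FPKM + 1) and each library left out, except that Socs3 was not tested with at least 10 counts required in every library. With the study's threshold on fold change, the members called in aging were 1 higher and 0 lower, those in ALS 2 higher and 0 lower, the other pathway genes higher in aging 10 and those lower in ALS 0. With limma on log2(FPKM + 1), 0 members were lower in aging and 1 in ALS, where the adjusted p-value was 0.0505 for Jak2 and 0.087 for Lifr, and Il6st in aging reversed to -0.033 (adjusted p = 0.874). The log2 ratio of the Il6st group means in aging was -0.025 in FPKM and 0.086 in CPM. The cause was not tested. In 1 fit of all libraries Il6ra in aging was not called (0.47, adjusted p = 0.0775). With each library left out, the members lower ranged from 1 to 2 in aging and from 0 to 2 in ALS, and those higher from 2 to 3 and from 4 to 4. For the differences between the comparisons only the 6 ALS libraries were left out in turn, and the number called ranged from 4 to 6. These differences were not fitted with a young or old library left out. As alternatives chosen after seeing the data, the other pathway genes lower ranged from 0 to 1 in each comparison and those higher from 25 to 29 in aging and from 37 to 47 in ALS. No paired analysis was possible because the columns carry no replicate number. With 3 mice a group, a member without a call in ALS may still differ.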

Other observations

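Several ligands of the family lay below the filter on low counts in aging and were therefore in no test there. Lif held from 1 to 10 counts in young and from 6 to 18 in old libraries (0.514 ± 0.361 and 1.34 ± 0.548 CPM, SD, n = 8). Osm held from 0 to 3 and from 1 to 10 counts, and Ebi3 from 2 to 10 and from 6 to 14. The counts of Il11, which signals through gp130 by its own receptor chain, were from 3 to 8 in young and from 1 to 9 in old libraries, and from 5 to 18 in control and from 3 to 8 in G93a libraries.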
